A study of Mus musculus with 6 samples.

Results

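The Notch receptors (Notch1, Notch2, Notch3 and Notch4), the Jagged ligands (Jag1 and Jag2) and the HES and HEY targets (Hes1, Hey1, Hey2 and Heyl) were followed in cultured mouse bone marrow mesenchymal stem cells. The 10 genes were taken by symbol from the per-library expression tables, and all 10 were among the 15063 genes listed there. RNA-seq had been done on 3 libraries of wild-type (WT) cells and 3 of cells with a Mapk7 conditional knock out (CKO), all from 3-week-old mice and grown in serum medium with no differentiation treatment named. WT library 2 was from passage 7, and the other 5 libraries were from passage 5. No source used here names the allele, the Cre driver or the strain. Mapk7 encodes the MAP kinase ERK5, and the series title concerns its part in the balance of bone and fat.

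Notch signalling passes between touching cells. A Jagged or Delta-like ligand on the sending cell binds a Notch receptor on its neighbour, ADAM proteases and then γ-secretase cut the receptor, and the freed intracellular domain enters the nucleus, where it joins the DNA-binding protein RBPJ and a Mastermind coactivator. HES and HEY genes are the best known targets, and they encode basic helix-loop-helix repressors. In marrow stroma, Notch activity is known for holding progenitors back from becoming osteoblasts.

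Levels are in RPKM, reads scaled to gene length and library total, so comparisons between genes rest on the lengths used. How these lengths were set is not given in the sources used here. Each library held 17351907 to 20689481 counted reads, and a gene of 1 kb with 3 reads would stand at 0.145 to 0.173 RPKM. In WT library 1, 3 reads would stand at 0.0060 RPKM in Rbpj and 0.0038 RPKM in Maml2, a Mastermind gene, so long lengths were used there. For Jag1 they would stand at 0.0148 RPKM, near the 0.0165 RPKM of Notch2. WT libraries 1 and 2 carry the same animal label, and WT library 3 has 1 animal number in its description and another in its table header. Despite the shared label, the Y-linked gene Ddx3y was at 0.0357 RPKM in WT library 1 and at 6.46 to 19.1 RPKM in the other 5 libraries, WT library 2 included. WT library 2 also stood apart in 16 cell cycle genes, which summed to 51.2 RPKM there and to 227.5 to 509.5 RPKM elsewhere. Separate litters or culture days are not stated, so p-values measure only the spread between these libraries. Of the stromal genes, Col1a1 stood at 1126 to 2959 RPKM and Prrx1 at 23.5 to 48.6 RPKM over the libraries. Lepr, a marker of marrow stromal cells in the animal, was under 1 RPKM throughout. The stromal list was not even between genotypes: of 11 tested genes, 3 had CKO wholly below WT and 1 wholly above. Among the 3 was Pdgfra, where WT gave 24.9, 32.3 and 14.1 RPKM and CKO gave 10.9, 1.01 and 9.82 RPKM. After adjustment by limma no stromal gene was past the threshold (smallest adjusted p = 0.376). Macrophage markers were also present, and their 12 genes summed to 392.5 to 3336 RPKM. The highest sum was in CKO library 3, where Lyz2 alone gave 2948 RPKM. Chondrocyte markers moved with genotype: the 10 genes summed to 845.9, 4941 and 1365 RPKM in WT against 217.9, 129.3 and 17.2 RPKM in CKO. All 8 tested had log2 differences below 0 (median −3.04), 6 of them with CKO wholly below WT, where the groups of 16.7% of all tested genes did not overlap. At an unadjusted p under 0.05 there were 7 of 8, beside 9.74% of all tested genes, and none passed after adjustment by limma (smallest adjusted p = 0.117). The part of chondrocyte-like cells in the values below was not tested. Of 12 endothelial markers, 11 were listed and 9 of these were under 1 RPKM in every library, Pecam1, Cdh5 and Tie1 among them. The 2 that were tested were Erg and Egfl7, the latter at 1.12 to 3.89 RPKM with overlapping groups. Erg read 2.86, 5.42 and 1.50 RPKM in WT against 0.478, 0.113 and 0.0772 RPKM in CKO. Its CKO values lay wholly below WT, but it did not pass (limma adjusted p = 0.258). The targeted gene, Mapk7, read 7.12, 6.76 and 9.07 RPKM in the WT libraries, numbered in order, against 5.59, 3.84 and 5.45 RPKM in CKO. All CKO values were thus under all WT values, yet the change of −0.54 on the log2 scale (SE 0.23) had an adjusted p of 0.505 in limma. Klf2, an ERK5-induced transcription factor gene, read 62.3, 23.5 and 59.2 RPKM in WT against 1.31, 2.70 and 3.10 RPKM in CKO (limma adjusted p = 0.0765, and 0.012 to 0.368 in the other settings run).

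The cultures held mainly 1 receptor, 1 ligand and 1 target transcript of the 10. Averaged over the 6 libraries, the order was Hes1 at 18.6 RPKM, Notch2 at 12.1, Jag1 at 4.74, Notch1 at 2.26, Notch3 at 2.03, Hey1 at 0.799, Hey2 at 0.560, Notch4 at 0.229, Jag2 at 0.153 and Heyl at 0.109 RPKM. Notch2 stood above Jag1, and Jag1 above Notch1, within 6 of 6 libraries. The other neighbours in this order changed places in at least 1 library, and Hey1 exceeded Hey2 in 3 of 6, so their order is not fixed beyond the spread. The whole order also depends on the gene lengths used, whose source is not given. By mean level Hes1 exceeded 78.4% of all listed genes, Notch2 69.3%, Jag1 48.2% and Heyl 9.02%.

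No member separated the genotypes. To be tested, a gene needed 3 or more of the 6 libraries at an RPKM of 1 or above, and 5 members met this (Notch1, Notch2, Notch3, Jag1 and Hes1). None of the 5 passed at an adjusted p under 0.05 in limma's moderated test on log2(RPKM + 1), with p-values adjusted by the Benjamini-Hochberg method over all 11085 tested genes. Only 1 gene of the 11085 passed (0.00902%), Galnt16, a glycosyltransferase gene outside the lists that is named here after its value was seen (log2 difference 3.11, adjusted p = 0.0329). At an unadjusted p under 0.05, 0 of the 5 members counted, against 9.74% of all tested genes, and voom on recovered reads also gave 0 of 5. The CKO values lay wholly above or wholly below the WT values for 0 of the 5, against 16.7% of all tested genes, and the groups overlapped for the other 5 members too. Exact permutation of the 6 libraries, which cannot go under p = 0.1 here, gave two-sided p-values of 0.2 to 0.9 for the 10 members. These p-values do not show that the genotypes were alike, and the intervals below give the sizes that the data leave possible.

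**Figure D1:**
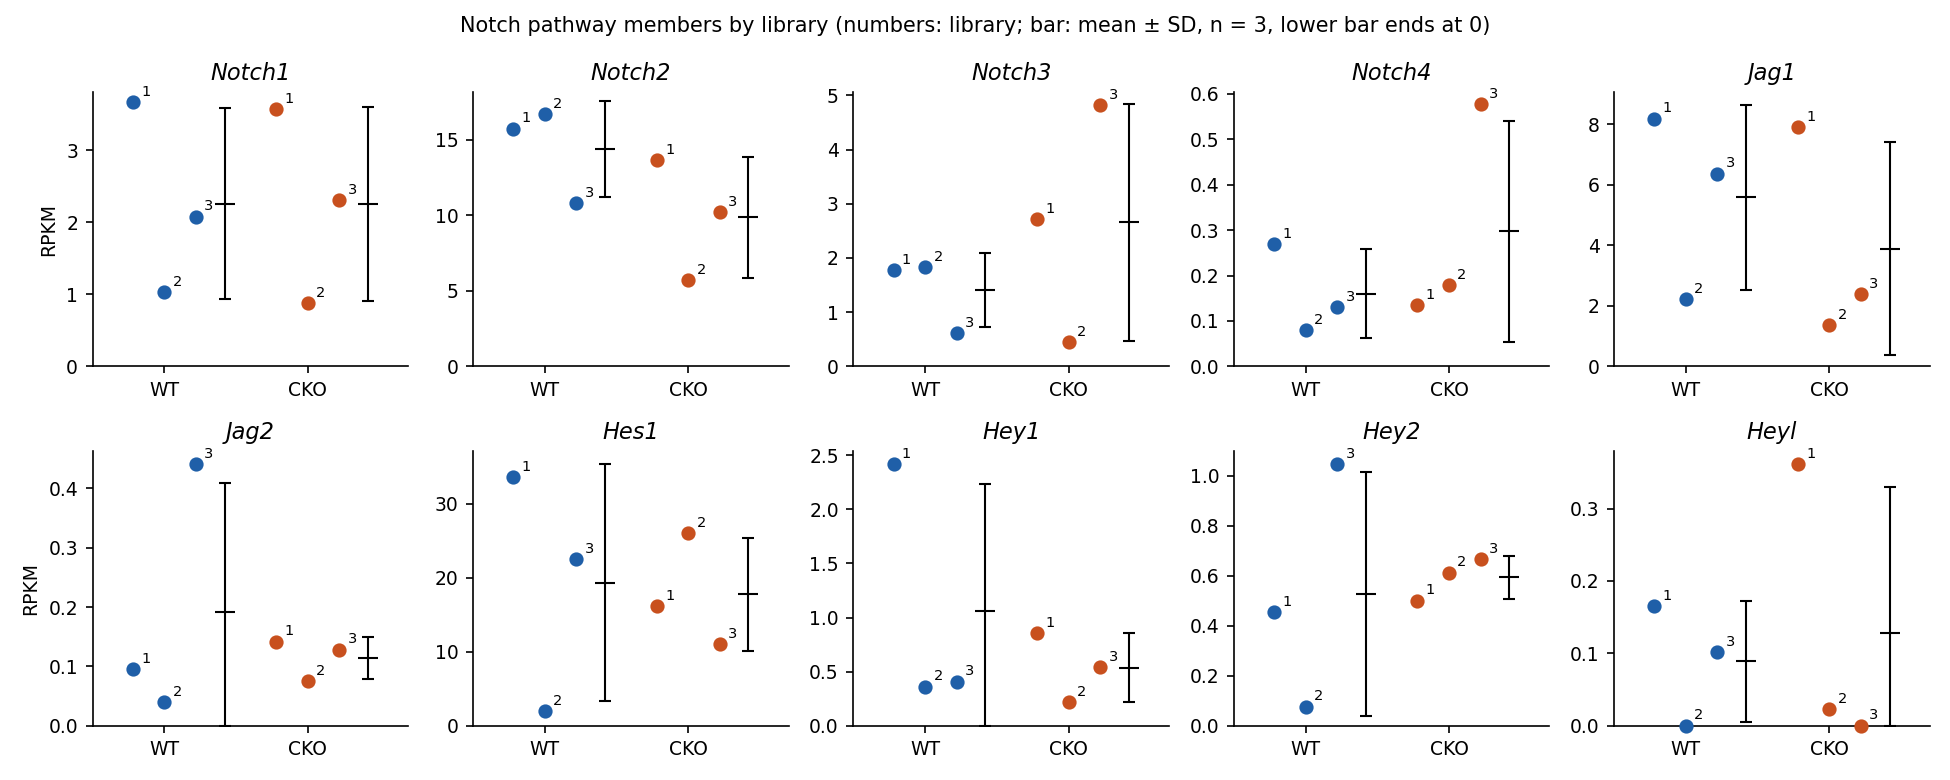
RPKM of the 10 members by library, with 1 panel per gene and its own linear axis starting at 0. Points are libraries (blue WT, orange CKO, numbered 1 to 3), and the black bar is the mean ± SD of n = 3 with its lower end stopped at 0. The genotypes overlap in every panel, as in Hes1, where WT spans 1.93 to 33.6 RPKM and CKO 11.1 to 26.1 RPKM.

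Notch2, a receptor that stromal cells and blood cells both carry, was the main receptor transcript. Its libraries read 15.7, 16.7 and 10.8 RPKM in WT against 13.6, 5.72 and 10.2 RPKM in CKO. The lowest value was in CKO library 2, and CKO library 1 lay above WT library 3, so the groups overlapped. The means were 14.4 ± 3.16 RPKM in WT against 9.86 ± 3.97 RPKM in CKO (SD, n = 3 each). The log2 difference was −0.55 (SE 0.33, 95% interval −1.32 to 0.22, limma adjusted p = 0.609). Without CKO library 2 it was −0.24 and without CKO library 1 it was −0.81, and it was below 0 in all 15 other settings run. Behind these values were 1162 to 3626 recovered reads per library, so counting error was small beside the spread between libraries. As in any bulk sample, fewer cells of a type and less RNA per cell cannot be told apart.

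Notch1, the receptor best known from T cells and skin, read 3.67, 1.03 and 2.08 RPKM in WT against 3.57, 0.882 and 2.31 RPKM in CKO. Each genotype held 1 high library (library 1) and 1 low library (library 2), and the means were 2.26 ± 1.33 and 2.26 ± 1.35 RPKM (SD, n = 3 each). The log2 difference was −0.01 (SE 0.42, 95% interval −1.0 to 0.98, limma adjusted p = 0.995). Leaving out CKO library 2 gave 0.34 and leaving out WT library 2 gave −0.31, so its sign rests on single libraries.

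Notch3, a receptor known for mural cells, the smooth muscle cells and pericytes around vessels, read 1.77, 1.83 and 0.614 RPKM in WT against 2.71, 0.452 and 4.82 RPKM in CKO. CKO library 3 was the highest and CKO library 2 the lowest of all 6, a span of 10.7-fold within 1 genotype. The means were 1.41 ± 0.686 RPKM in WT against 2.66 ± 2.18 RPKM in CKO (SD, n = 3 each). Its log2 difference of 0.44 (SE 0.52, 95% interval −0.78 to 1.65, limma adjusted p = 0.791) was −0.01 without CKO library 3 and 1.00 without CKO library 2. The 11 mural and smooth muscle markers summed to 745.7 to 2840 RPKM in WT and to 3333 to 8446 RPKM in CKO, highest in CKO library 2, where Notch3 was lowest. Most of that library's sum came from the contractile genes Acta2 (4085 RPKM) and Tagln (3364 RPKM). The list did not move 1 way. Non-overlapping groups were found for 16.7% of all tested genes. Of the 9 tested markers, 5 lay wholly above WT and 2 wholly below. The latter were the mural genes Cspg4, at 17.2, 7.62 and 11.6 RPKM in WT against 1.23, 3.17 and 0.378 RPKM in CKO, and Pdgfrb, at 60.2 to 85.8 RPKM in WT against 26.1 to 48.5 RPKM in CKO. Before adjustment, limma p-values fell below 0.05 for 5 markers that were higher in CKO and 2 that were lower. The share among all tested genes was 9.74%. None of the 9 passed after adjustment (smallest adjusted p = 0.253 in limma). Kcnj8 and Abcc9, markers of pericytes, were under 1 RPKM in every library. The part of mural and smooth muscle cells in the Notch3 values was not tested.

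Notch4, a receptor of endothelial cells, was barely detected. It stood at 0.270, 0.0802 and 0.130 RPKM in WT against 0.135, 0.179 and 0.578 RPKM in CKO, from 11 to 68 reads per library. CKO library 3 was the highest, and the other 5 libraries overlapped between genotypes. It was below the level needed for the test.

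Notch2 made up 73.4%, 85.0% and 79.3% of the summed RPKM of the 4 receptors in WT, and the CKO libraries gave 68.0%, 79.1% and 57.0%. It was the larger part of the receptor transcripts in each library. Notch3 held 8.27%, 9.32% and 4.51% of the sum in WT and 13.5%, 6.25% and 26.9% in CKO, with the highest share in CKO library 3. The 4 receptors together summed to 18.2 ± 4.10 RPKM in WT against 15.1 ± 6.87 RPKM in CKO (SD, n = 3 each), a difference smaller than either SD.

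Jag1, a ligand gene that is itself a Notch target in several tissues, had high and low libraries in both genotypes. Its libraries read 8.19, 2.22 and 6.37 RPKM in WT against 7.90, 1.36 and 2.38 RPKM in CKO. WT libraries 1 and 3 and CKO library 1 were high, while WT library 2 and CKO libraries 2 and 3 were low, with 309 to 1753 reads behind the values. The means were 5.59 ± 3.06 RPKM in WT against 3.88 ± 3.52 RPKM in CKO (SD, n = 3 each). The log2 difference was −0.54 (SE 0.58, 95% interval −1.91 to 0.83, limma adjusted p = 0.765). Leaving out CKO library 1 gave −1.09 and leaving out WT library 2 gave −0.99. Leaving out WT library 1 gave −0.23 and leaving out CKO library 2 gave −0.13.

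Jag2, the second Jagged ligand, read 0.0952, 0.0399 and 0.440 RPKM in WT against 0.142, 0.0747 and 0.128 RPKM in CKO, from 4 to 37 reads per library. WT library 3 alone exceeded 0.2 RPKM. Of the Delta-like ligands, Dll1 was at 0.0608 to 0.199 RPKM over the 6 libraries, and Dll3 and Dll4 were not among the genes listed. Jag1 thus gave 90.3% to 98.1% of the summed RPKM of Jag1, Jag2 and Dll1 in WT and 91.0% to 96.6% in CKO.

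**Figure D2:**
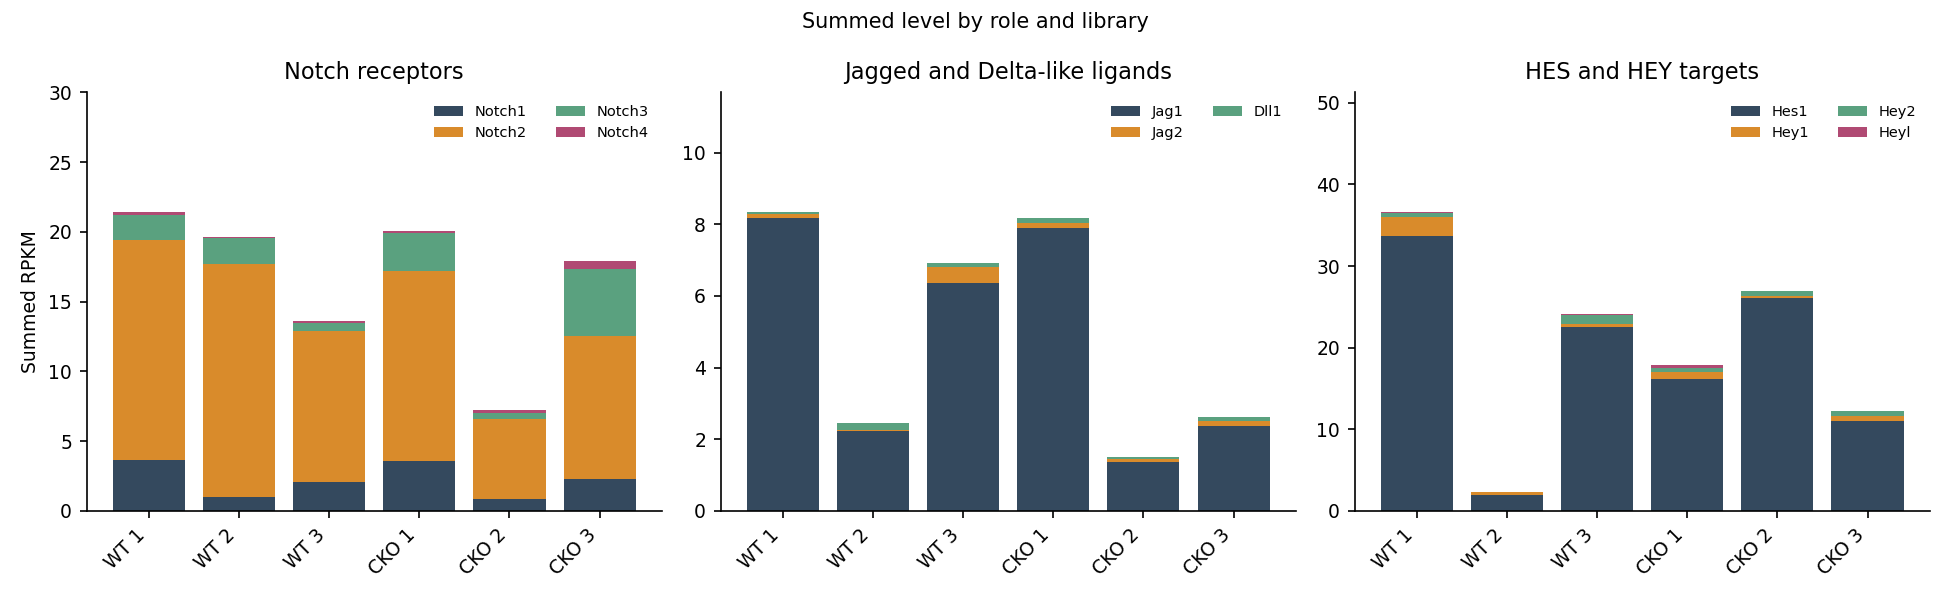
Summed RPKM per library, stacked by gene, for the 4 Notch receptors, the 3 listed Jagged and Delta-like ligands and the 4 HES and HEY targets. Each panel has its own linear axis from 0. Notch2, Jag1 and Hes1 form the largest block of their role in all 6 libraries, and the receptor sum is lowest in CKO library 2 at 7.23 RPKM.

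The promoters of the main receptor and the main ligand are shown with that of Hey2, the only target among the 4 with an entry in the RefSeq promoter table, to show which letters bound by the Notch effectors lie there. The table (build GRCm38.p6, which is not the build of the expression files) held 7 of the 10 members, and Hes1, Hey1 and Heyl had no entry. Each stretch is the 250 bases before the annotated start, 5′ to 3′ on the gene's strand: chr3:98013288-98013537 (plus strand) for Notch2, chr2:137116521-137116770 (minus strand) for Jag1 and chr10:30842784-30843033 (minus strand) for Hey2. Capitals mark matches on either strand to the RBPJ core TGGGAA, read as TTCCCA on the other strand, or to letters that HES and HEY proteins bind. These are the class C site CACGCG, read as CGCGTG on the other strand, and the N-box CACNAG, read as CTNGTG on the other strand.
Notch2: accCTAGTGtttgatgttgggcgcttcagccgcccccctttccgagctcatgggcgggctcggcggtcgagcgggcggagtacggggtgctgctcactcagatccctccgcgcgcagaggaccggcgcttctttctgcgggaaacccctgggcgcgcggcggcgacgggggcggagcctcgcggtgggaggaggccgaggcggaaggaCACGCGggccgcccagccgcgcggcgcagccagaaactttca
Jag1: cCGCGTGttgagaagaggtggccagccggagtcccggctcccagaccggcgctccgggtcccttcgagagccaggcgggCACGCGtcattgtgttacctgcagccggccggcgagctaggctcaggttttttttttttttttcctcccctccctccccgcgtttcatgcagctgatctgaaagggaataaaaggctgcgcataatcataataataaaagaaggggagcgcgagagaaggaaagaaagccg
Hey2: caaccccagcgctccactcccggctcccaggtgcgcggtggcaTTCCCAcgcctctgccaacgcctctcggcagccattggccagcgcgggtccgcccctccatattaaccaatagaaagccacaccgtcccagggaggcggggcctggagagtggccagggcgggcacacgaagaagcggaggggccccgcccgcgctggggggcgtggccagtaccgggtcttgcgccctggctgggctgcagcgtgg

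The Hey2 stretch held 1 RBPJ core match, TTCCCA, which begins 207 bases before the start. The stretches of Notch2 and Jag1 held none, nor did those of Notch1, Notch3, Notch4 and Jag2, which are not printed. Over the 32851 windows of this length in the table, 21.6% held the RBPJ core. Notch2 had a class C match 42 bases and an N-box match 247 bases before its start, and Jag1 had class C matches at 249 and 171 bases. Of all windows, 7.62% held the class C letters and 36.7% an N-box, and no matches overlapped in the 3 stretches shown. A match is a description of the letters and not a bound site.

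Hes1, the repressor gene that Notch, among other signals, switches on, was the most abundant member on average and had the widest span between libraries of the 5 that were tested, 17.5-fold against 10.7-fold for Notch3. Its libraries read 33.6, 1.93 and 22.5 RPKM in WT against 16.2, 26.1 and 11.1 RPKM in CKO. WT library 2, the passage 7 library, was the lowest by far, and all 3 CKO libraries lay between the lowest and the highest WT library. That whole span lay within WT, and the CKO libraries spanned 2.36-fold, with 69 to 1010 reads behind the values. The means were 19.4 ± 16.1 RPKM in WT against 17.8 ± 7.64 RPKM in CKO (SD, n = 3 each). The log2 difference was 0.41 (SE 0.89, 95% interval −1.70 to 2.52, limma adjusted p = 0.89). Among the passage 5 libraries alone, that is without WT library 2, it turned to −0.68. Dropping WT library 1 gave 1.10 and dropping WT library 3 gave 0.82. Dropping CKO library 3 gave 0.69 and dropping CKO library 2 gave 0.11. Passage 7 and the library that stands for it cannot be told apart.

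Hey1, a target gene induced by Notch and by BMP signals, read 2.42, 0.361 and 0.407 RPKM in WT against 0.855, 0.215 and 0.538 RPKM in CKO, from 10 to 101 reads. WT library 1 was the only library above 1 RPKM. Hey2, better known in heart and vessels, read 0.455, 0.0764 and 1.05 RPKM in WT against 0.501, 0.612 and 0.667 RPKM in CKO, from 2 to 23 reads. The 3 CKO values lay close together within the wider WT range. Heyl, a target gene known in vascular smooth muscle, read 0.165, 0 and 0.102 RPKM in WT against 0.361, 0.0228 and 0 RPKM in CKO. No read was counted in WT library 2 or CKO library 3, which allows up to 0.032 and 0.0373 RPKM, the level of 3 reads there. This limit covers counting error only. Hes1 held 81.5% to 93.5% of the summed RPKM of the 4 targets in WT and 90.2% to 96.9% in CKO.

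The other pathway genes, 46 in all from lists by role, likewise gave no call. Of these, 40 were listed and 32 could be tested, and 0 of 32 passed over all genes by limma (0 higher and 0 lower). At an unadjusted p under 0.05 the count was 0 of 32 by limma and 1, Neurl1a, by voom on recovered reads. Of the 32, 11 log2 differences lay above 0 and 21 below 0, with a median of −0.11 beside 0.034 for all tested genes. The groups did not overlap for Neurl1a and Aph1b, 2 of 32, where the background was 16.7%.

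Rbpj, the DNA-binding partner of the cut receptor, read 8.49, 7.03 and 6.73 RPKM in WT against 12.0, 7.80 and 24.4 RPKM in CKO. CKO library 3 stood far above the rest, and CKO library 2 lay below WT library 1. Its log2 difference was 0.77 (SE 0.38, limma adjusted p = 0.568), 1.12 without CKO library 2 and 0.35 without CKO library 3. CKO library 3 also had the highest macrophage marker sum, 3336 RPKM, of which Lyz2 alone gave 2948 RPKM. WT library 3, next at 2004 RPKM, had the lowest Rbpj. Single macrophage markers did not all rank these libraries alike. Laptm5 read 41.3 RPKM in WT library 3 and 22.7 RPKM in CKO library 3, while Itgam read 13.1 and 50.5 RPKM. The part of macrophages in the Rbpj values was not tested. The other nuclear genes included Maml2, a Mastermind coactivator gene, at 1.30 ± 0.207 RPKM in WT against 0.806 ± 0.432 RPKM in CKO, and 5 of the 7 tested nuclear genes lay below 0.

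On the sending side, Neurl1a, which encodes a ubiquitin ligase of the Neuralized family that acts on Notch ligands, read 1.58, 0.725 and 1.01 RPKM in WT against 1.83, 2.49 and 1.79 RPKM in CKO. Each CKO value lay above each WT value, but the difference did not pass (log2 difference 0.54, limma adjusted p = 0.533). Mib2, another ligand ubiquitin ligase gene, averaged 11.5 ± 3.53 RPKM in WT against 9.17 ± 1.62 RPKM in CKO. Dlk2, an atypical ligand gene, averaged 1.34 ± 1.27 and 1.59 ± 1.35 RPKM, and the other listed atypical ligands were below the level needed for the test.

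The genes for the proteases that cut the receptors were all listed at 1 RPKM or more in the libraries needed for the test, and their 9-gene summed RPKM was 250.6 to 259.9 in WT and 225.2 to 254.1 in CKO. Aph1b, a γ-secretase subunit gene, read 3.90, 3.79 and 3.31 RPKM in WT against 3.15, 2.75 and 2.42 RPKM in CKO. Each CKO value of Aph1b lay below each WT value, without passing (log2 difference −0.31, limma adjusted p = 0.652). Psenen, another γ-secretase subunit gene, averaged 58.5 ± 10.7 RPKM in WT against 45.2 ± 13.3 RPKM in CKO. Of the sugar-modifying genes, Pofut1, which encodes the O-fucosyltransferase of Notch, averaged 14.0 ± 3.93 and 11.0 ± 1.50 RPKM, and Rfng, a Fringe gene, averaged 11.4 ± 2.14 and 9.42 ± 0.998 RPKM.

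Among 8 genes that restrain or turn over Notch, 7 were tested and 5 of these lay below 0. Dtx4, a Deltex ubiquitin ligase gene, averaged 1.80 ± 0.649 RPKM in WT against 3.25 ± 1.53 RPKM in CKO (limma adjusted p = 0.594). Fbxw7, whose product marks the cut receptor for breakdown, averaged 3.18 ± 0.152 RPKM in WT against 2.47 ± 0.599 RPKM in CKO. Of 6 further genes, 5 of the HES family and Nrarp, a Notch feedback gene, 2 were listed. Nrarp was under 0.2 RPKM in every library, and Hes6 averaged 9.67 ± 2.46 RPKM in WT against 10.5 ± 4.94 RPKM in CKO.

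**Figure D3:**
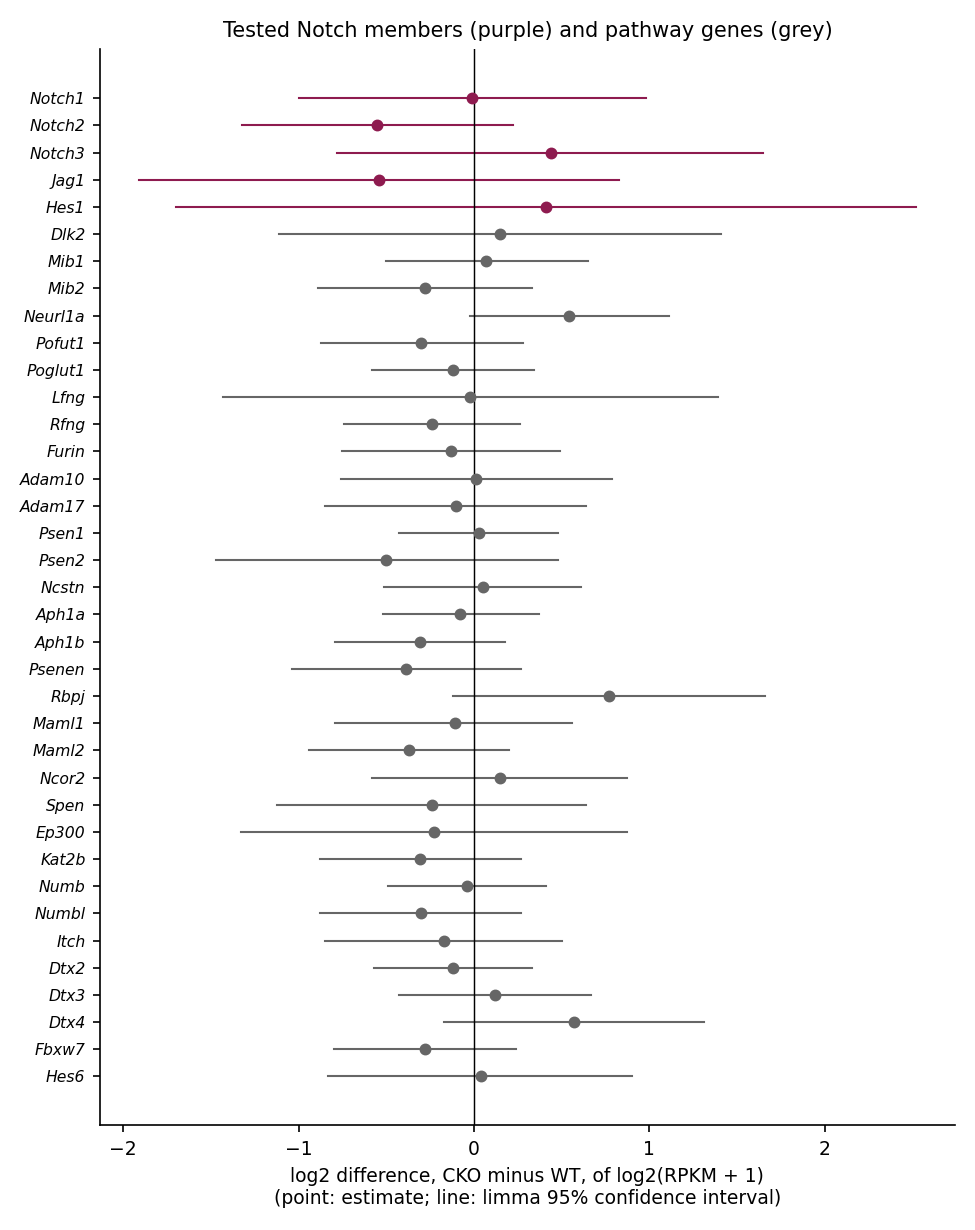
Log2 difference, CKO minus WT, on the log2(RPKM + 1) scale for the 5 tested members (purple) and the 32 tested other pathway genes (grey). Points are limma estimates and lines their 95% intervals, and all lines cross 0. The line of Hes1 is the longest, from −1.70 to 2.52, and that of Notch2 runs from −1.32 to 0.22.

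The profiles of the main receptor, ligand and target over the 6 libraries were set beside those of all tested genes, by the mean absolute difference of log2(RPKM + 1) values centred on each gene's mean. This describes likeness in 6 libraries that share depth and culture, and carries no test. Closest to Notch2 were Mpdz, Neo1 and Ubr1, at 0.058, 0.076 and 0.076 log2 units, where Notch2 itself deviated by 0.38 on average. Mpdz, a gene for a scaffold protein of cell contacts, read 11.9, 14.9 and 8.84 RPKM in WT against 11.1, 4.38 and 7.89 RPKM in CKO, so it shared the low value in CKO library 2.

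Closest to Hes1 were Cdca3, Cdkn3 and Tacc3, all genes of the dividing cell, at 0.22, 0.23 and 0.24 log2 units beside a mean deviation of 0.92 for Hes1. Cdca3 read 22.9, 1.24 and 15.8 RPKM in WT against 21.5, 21.7 and 8.68 RPKM in CKO. Like Hes1 it was lowest in WT library 2 and next lowest in CKO library 3. A list of 16 cell cycle genes summed to 509.5, 51.2 and 308.1 RPKM in WT and to 503.5, 396.2 and 227.5 RPKM in CKO. All 16 had log2 differences above 0, with a median of 0.90. None of the 16 passed, and 0 had an unadjusted p under 0.05 in limma, beside 9.74% of all tested genes. Hes1 and this list parted in CKO library 1, where the list was near its highest and Hes1 ranked 4 of 6. The part of cell division in the Hes1 values was not tested.

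Closest to Jag1 were Krt5, Krt17 and Gm15246, at 0.17, 0.17 and 0.20 log2 units beside a mean deviation of 0.76 for Jag1. Krt5 and Krt17 encode keratins of the skin's basal and wounded epidermis, which is not a cell of marrow stroma. Krt5 read 1.88, 0 and 1.54 RPKM in WT against 1.34, 0 and 0 RPKM in CKO. It was therefore counted in the 3 libraries with high Jag1 and in none of those with low Jag1. A list of 16 keratinocyte markers was then drawn up, after these values were seen, and 15 were listed. They summed to 26.2, 6.80 and 24.8 RPKM in WT and to 16.4, 11.1 and 3.97 RPKM in CKO, so the 3 libraries with high Jag1 also had the highest sums. The sum includes Krt5 and Krt17, which were picked for their likeness to Jag1, so its own likeness was partly fixed in advance. Krt14, the partner of Krt5, read 4.19, 0 and 3.12 RPKM in WT against 3.07, 0 and 0 RPKM in CKO, and Krt6a and Krt6b were likewise listed at 0 in the same 3 libraries. Reads of such similar keratins may have been shared between them in counting. The list was not uniform: Trp63, the basal epidermal regulator gene, was highest in WT library 2 at 3.84 RPKM, Sfn in CKO library 2 at 9.36 RPKM, and Cdh1 was under 1 RPKM in every library. None of the 8 tested markers passed between genotypes, and the part of such cells in the Jag1 values was not tested.

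**Figure D4:**
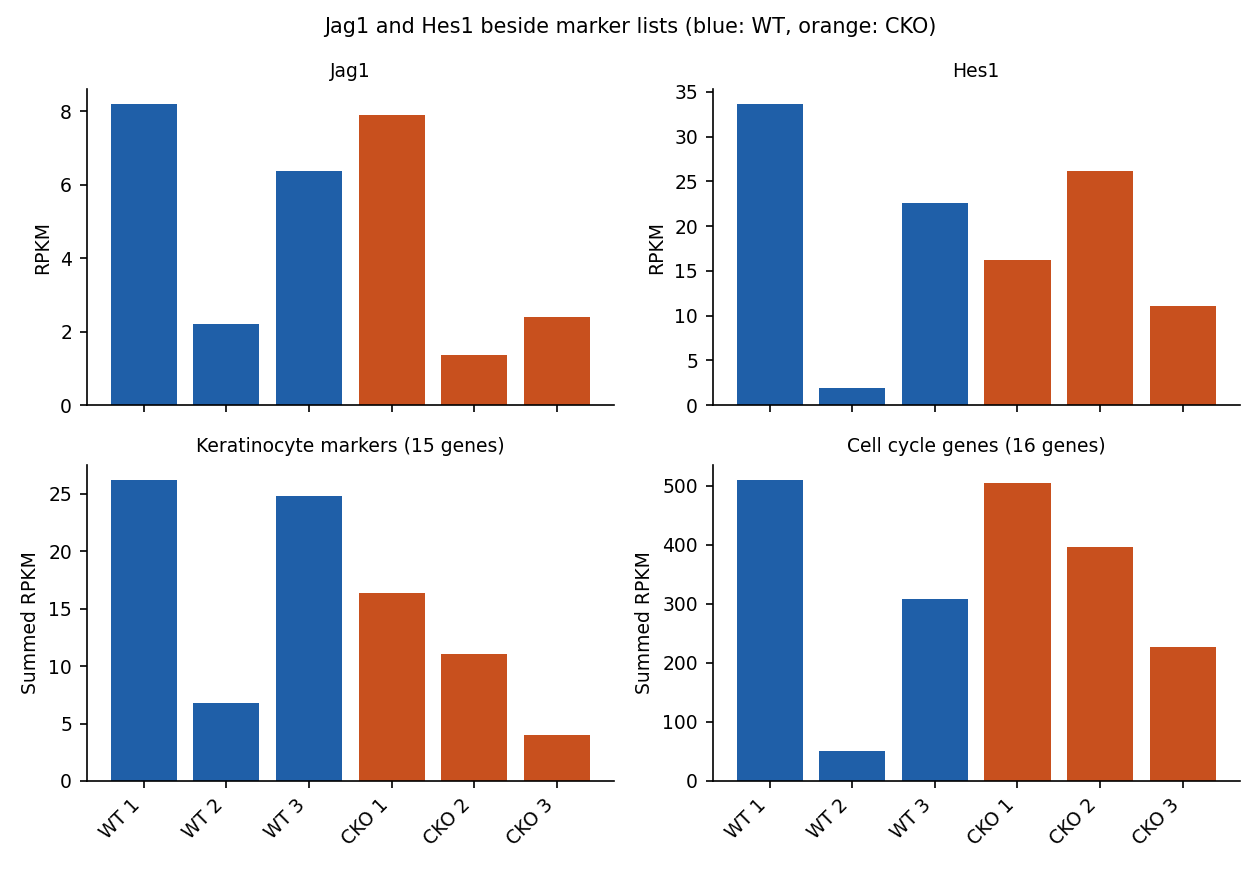
Jag1 and Hes1 in RPKM (upper panels) above the summed RPKM of the 15 listed keratinocyte markers and the 16 cell cycle genes (lower panels), 1 bar per library on linear axes from 0, with WT in blue and CKO in orange. Jag1 and the keratinocyte sum are both highest in WT libraries 1 and 3 and CKO library 1, and Hes1 and the cell cycle sum are both lowest in WT library 2, at 1.93 RPKM and 51.2 RPKM. The keratinocyte list includes Krt5 and Krt17 and was drawn up after their likeness to Jag1 was seen.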

How the data were processed

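RNA-seq values of 6 libraries, 3 WT and 3 CKO, were used, with groups and replicate numbers taken from the sample titles. The authors deposited 1 value per gene and library in RPKM. No header names the unit, which was read from the numbers themselves: whole library totals and gene lengths gave whole reads for 15062 of 15063 genes (99.99%), within 0.01 read or a relative error of 1e-07, and for 0 of 200 genes with values shuffled between genes. These recovered reads are counts up to a common factor. Per the submitters' processing notes the build was mm9. How reads were aligned, counted by strand and filtered is not given in the sources used here, so overlapping and similar genes may share reads. A table of the whole series held identical values.

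Values were tested as log2(RPKM + 1) with limma 3.58.1 in R 4.3.3, with trend and robust moderation, genotype as the only term and no further scaling, in the 11085 genes with RPKM of at least 1 in at least 3 libraries. Fold changes on this scale understate those of low genes. Tables and figures used Python 3.11.15 and matplotlib 3.10.9. The test was tried on simulated data. Named genes were the 10 members, Mapk7, Klf2, Rbpj, Dll1, Dll4, the 2 genes of lowest p per pathway list and the 3 genes closest to the main receptor, ligand and target. Marker lists were of stromal, macrophage, endothelial, mural, chondrocyte and keratinocyte cells and the cell cycle. The members and lists were chosen with earlier results of these data known. Alternatives are given in the closing section.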

Additional observations from a re-analysis of the deposited data

How the results depend on the processing

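The count of 0 past the adjusted threshold, for the 5 tested members and the 32 tested other pathway genes, was the same in each of the 15 other settings run. These were median centring, quantile normalization, no filter (10 members and 40 pathway genes), a filter at RPKM 5 (3 and 26), a 0.1 pseudocount and plain moderation in limma. The rest were voom on recovered reads, merging the WT libraries of 1 animal label, the replicate number as a block, and leaving out each library. At an unadjusted p under 0.05, limma counted 1 of 5 members without CKO library 1 (Notch2, with 983 of all 10900 genes). Without CKO library 2 it counted 1 of 5 (Notch3, with 980 of all 11005 genes) and 2 of the 32 pathway genes. In the other settings the unadjusted count was 0 for members and 0 or 1 for pathway genes. The number of all genes past the threshold, 1, was 2 after median centring or quantile normalization, 4 with the filter at RPKM 5, 43 with the merged WT libraries, and 0 with no filter, a pseudocount of 0.1, the replicate block or voom (1399, 1059, 1123 and 1017 genes at an unadjusted p under 0.05 there), and 0 to 24 with 1 library left out (dropping WT library 1 gave 24, CKO library 1 gave 17 and CKO library 2 gave 1). Dropping WT library 2 gave 0 (642 at an unadjusted p under 0.05), as did WT library 3 (665) and CKO library 3 (800). Correlations of deviations between same-numbered libraries were 0.198, 0.0145 and −0.0192. Those between libraries of unlike number ran from −0.23 to 0.206. With 3 libraries per genotype, these values cannot tell whether the numbers pair the libraries. Signs turned for Notch1 (0.02 after median centring, 0.04 after quantile normalization, −0.31 to 0.34 with 1 library left out), Notch3 (−0.01 to 1.00 with 1 library left out), Hes1 (−0.24 with the merged WT libraries, −0.68 to 1.10 with 1 library left out), Dlk2 (−0.27 to 0.58 with 1 library left out) and Hes6 (−0.02 merged, −0.001 with voom, −0.27 to 0.40 with 1 library left out). The cause was not tested. Notch4, Jag2, Hey1, Hey2 and Heyl could be fitted only with no filter, at log2 differences of −0.31 to 0.15. Depth limits Jag2, Hey2 and Heyl most, at 0 to 37 reads per library, while the 5 tested members had 69 to 3626 reads.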
